A study of Mus musculus with 24 samples.

Results

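The miR-23/27/24 family is made from 2 genomic clusters, and all 5 of its mature forms on the array, mmu-miR-23a, mmu-miR-27a, mmu-miR-23b, mmu-miR-27b and mmu-miR-24, were taken by name, out of 611 mouse miRNAs. The rule used their names alone. All 5 were among the 120 mouse miRNAs that were detected on at least 6 of the 24 arrays and were therefore tested. None of the 5 passed the test in any comparison of c-Raf with wild type or of males with females. Their measured levels were lowest, as group means, in male wild type lungs in all 5 cases (in 4 of 5, all but miR-24, without 1 dim array of that group). The 2 miR-27 forms had the widest gap between male transgenic and male wild type lungs, 0.78 (miR-27a) and 0.65 (miR-27b) as log2 differences. Without that array these gaps were 0.34 and 0.45, against 0.28 for miR-23b. On the brighter of 2 probes, miR-27a was then at 0.16, below miR-23b at 0.22 and miR-23a at 0.21. With another background correction (normexp) and all arrays kept, the miR-27 gaps turned to -0.55 and -0.69.

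The arrays compared lung of SP-C/c-raf transgenic mice (cRaf overexpressing in the labels) with lung of wild type mice, in males and females aged 4 to 6 months. The transgenic groups are called M c-Raf and F c-Raf, the wild type groups M WT and F WT, and each of the 4 held 6 individual mice with 1 array per mouse. The transgene codes for an activated deletion mutant, c-Raf-1-BxB, and is driven by the surfactant protein C promoter, which is active in alveolar type II cells, so that c-Raf is raised in the lung epithelium and not in every lung cell. The study's methods describe cells cut by laser from stained frozen sections of each lung, while its abstract speaks of RNA extracts from lungs. Total RNA was labelled with the dye Cy3. The labels give lung adenocarcinoma as the tissue of all 24 samples, the wild type ones included. In such material, fewer cells of a type and less of a miRNA per cell cannot be told apart.

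A miRNA is a short RNA that directs repression of messenger RNAs, mainly by pairing of its seed (bases 2 to 8 counted from its 5′ end) with matching sites. The miR-23a and miR-23b clusters each give a single primary transcript from which a miR-23, a miR-27 and a miR-24 are cut, so the members of a cluster share their transcription but may differ in maturation and decay. The family is known for roles in endothelial cells and angiogenesis (miR-23 and miR-27), for repression of glutaminase (miR-23), for regulation of fat cell formation (miR-27) and for repression of cell cycle genes (miR-24).

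The RefSeq tables held a mature sequence for 4 of the 5 members, on build GRCm38.p6. The entry for mmu-miR-23b was missing. The sequences are shown because the seeds decide which members can be read as 1 family and which pairs a probe has to tell apart. The capitals mark the seed.
mmu-miR-23a: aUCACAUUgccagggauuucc
mmu-miR-27a: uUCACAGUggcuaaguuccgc
mmu-miR-27b: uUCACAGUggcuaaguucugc
mmu-miR-24: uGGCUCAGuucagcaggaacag

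miR-27a and miR-27b shared the seed and 20 of 21 bases, and the substitution from miR-27a to miR-27b was C19U, counted from the 5′ end. A single base near the 3′ end therefore separates the targets of their probes, and how much of a probe's signal comes from the other form was not tested. The seed of miR-23a differed from that of both miR-27 forms by 1 base, U7G with the miR-23a base first. miR-24 differed from them at all 7 seed positions, and the mature miR-24 is cut from a hairpin of each cluster, so the array cannot assign it to either. Among the RefSeq entries whose name matched a miRNA of the array, no other one had the seed of these 4 members. miR-23b is on the array but had no entry, so its seed and its likeness to miR-23a could not be compared here.

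The miR-23a cluster lies on the plus strand at chr8:84208518-84208921, a span of 404 bases that holds the hairpins Mir23a, Mir27a and Mir24-2. Its mature forms are at chr8:84208563-84208583 (miR-23a), chr8:84208727-84208747 (miR-27a) and chr8:84208875-84208896 (miR-24). In the RefSeq gene table no protein-coding gene overlapped this cluster. The miR-23b cluster (Mir23b, Mir27b and Mir24-1) lies on the plus strand at chr13:63300484-63301275, a span of 792 bases inside the protein-coding gene Aopep. Its miR-27b is at chr13:63300760-63300780 and its miR-24 at chr13:63301251-63301272. The passenger forms miR-27a*, miR-27b*, miR-24-1* and miR-24-2* were on the array and were detected on 0 of 24 arrays, so only the guide strands could be followed.

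Each member was measured by 20 spots, 10 for each of 2 probes. Levels are given as log2 of the background-subtracted signal over the 75th percentile of the array's spots for the 27 mouse miRNAs detected on all 24 arrays, so that 0 means a signal equal to that percentile. miR-23a, miR-23b and miR-24 were detected on 24 of 24 arrays and were themselves among those 27. Their spots made up 11.1% of the scaling set. miR-27a was detected on 22 arrays, all but M WT replicate 4 and M c-Raf replicate 6. miR-27b was detected on 20 arrays, all but M WT replicates 2, 4 and 5 and M c-Raf replicate 6. The 75th percentile itself ran from 34.9 intensity units on M c-Raf replicate 6 and 52.8 on M WT replicate 4 to 1212 on M c-Raf replicate 4, with group medians of 176 in M WT, 433 in M c-Raf, 265 in F WT and 193 in F c-Raf. No member spot was saturated. The epithelial miR-200c and miR-200b, which should be present in lung, were detected on all 24 arrays. The epithelial miR-429, miR-200a and miR-141 were detected on 13, 11 and 1 of the 24.

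**Figure D1:**
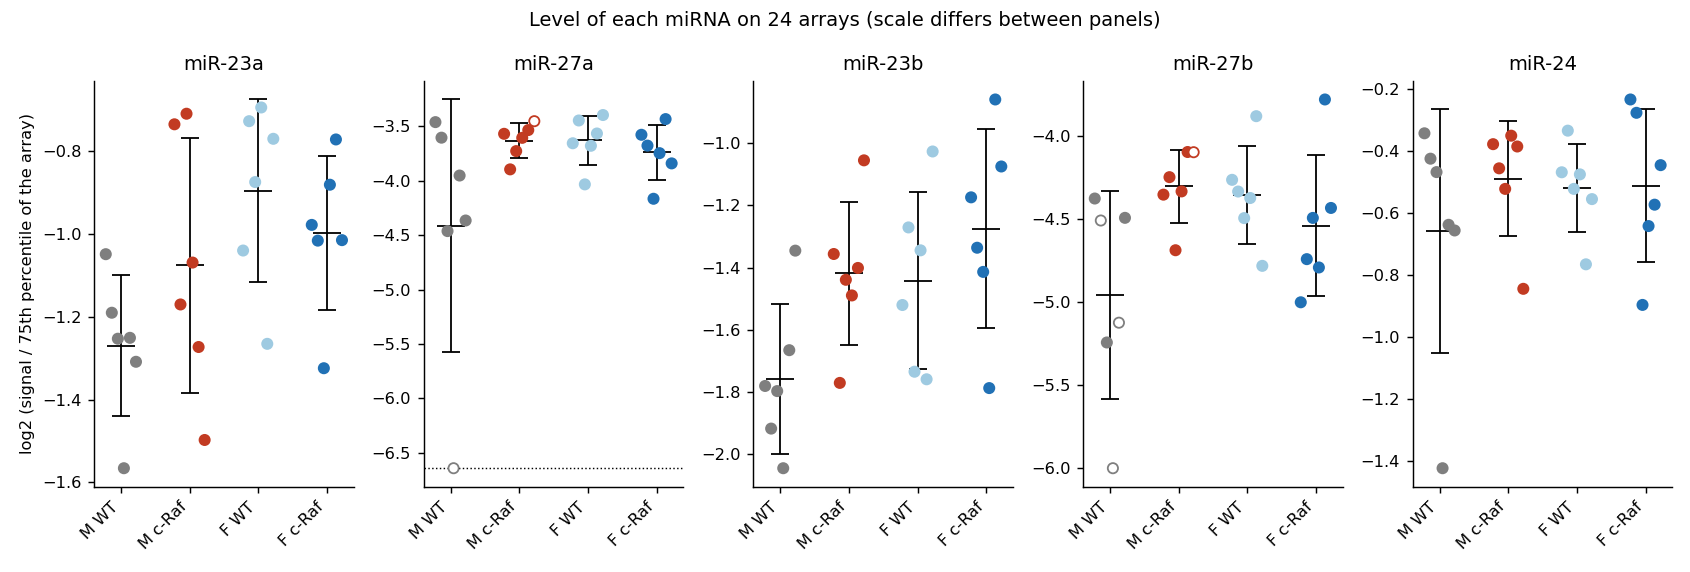
Level of each member on the 24 arrays, as log2 of the signal over the 75th percentile of the array (y axis, scale differs between panels), by group (x axis). Points are arrays, open where the miRNA was not detected, and bars give the mean and SD of 6 arrays. The dotted line is the floor of -6.64 at which M WT replicate 4 lies for miR-27a. The M WT mean is the lowest in every panel (for miR-24, not without replicate 4, whose absence leaves -0.505), and the groups overlap in every panel.

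In the miR-23a cluster, miR-23a varied little. Its level in M WT was -1.57 at the lowest, -1.25 at the median and -1.05 at the highest. In M c-Raf the corresponding levels were -1.497, -1.12 and -0.71, in F WT they were -1.27, -0.82 and -0.69, and in F c-Raf they were -1.32, -0.997 and -0.77. The order of the group means was M WT, M c-Raf, F c-Raf and F WT, from -1.27 ± 0.17 to -0.90 ± 0.22 (SD, n = 6 each). Each step in that order was smaller than the larger SD of the 2 groups beside it, and the ranges of all 4 groups overlapped. Its mean SD within a group was 0.23 on the log2 scale, and 3 of the 120 tested miRNAs had a smaller one, against a median of 0.56 over all tested.

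miR-27a, which is cut from the same transcript, lay near the detection limit on some arrays. Its level in M WT was -6.64 at the lowest, -4.16 at the median and -3.46 at the highest. The lowest value is the floor, where the median of the 20 spots of M WT replicate 4 was -0.26 intensity units after background subtraction. In M c-Raf the levels were -3.89, -3.59 and -3.45, in F WT they were -4.03, -3.61 and -3.40, and in F c-Raf they were -4.17, -3.71 and -3.43. Apart from M WT, the 3 group means lay between -3.74 ± 0.25 and -3.63 ± 0.23 (SD, n = 6), closer together than the SD within any of them. The M WT mean was -4.41 ± 1.16, and without replicate 4 the other 5 arrays averaged -3.97.

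In the miR-23b cluster, miR-23b had levels in M WT of -2.04 at the lowest, -1.79 at the median and -1.35 at the highest. In M c-Raf they were -1.77, -1.42 and -1.06, in F WT they were -1.76, -1.43 and -1.03, and in F c-Raf they were -1.79, -1.26 and -0.86. The group means ran from -1.76 ± 0.24 in M WT through -1.44 ± 0.28 in F WT and -1.42 ± 0.23 in M c-Raf to -1.27 ± 0.32 in F c-Raf. The 3 upper groups lay within 1 SD of each other, and 4 of the 6 M WT arrays were below all 6 F WT arrays. Its mean SD within a group was 0.27, and 6 of the 120 tested miRNAs had a smaller one.

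miR-27b had levels in M WT of -6.00 at the lowest, -4.82 at the median and -4.38 at the highest. In M c-Raf they were -4.69, -4.29 and -4.10, and 5 of the 6 M c-Raf arrays were above all 6 M WT arrays. In F WT they were -4.78, -4.36 and -3.88, and in F c-Raf they were -5.002, -4.62 and -3.78. The group means were -4.96 ± 0.62 in M WT, -4.54 ± 0.43 in F c-Raf, -4.36 ± 0.29 in F WT and -4.30 ± 0.22 in M c-Raf (SD, n = 6 each). These are weak signals: the median intensity in M WT was 5.92 units, against 18.5 in M c-Raf, 12.8 in F WT and 8.04 in F c-Raf before scaling, and 3 of 6 M WT arrays were not well above background.

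miR-24, which both clusters encode, had levels in M WT of -1.42 at the lowest, -0.55 at the median and -0.34 at the highest. In M c-Raf they were -0.84, -0.42 and -0.35, in F WT they were -0.76, -0.50 and -0.33, and in F c-Raf they were -0.90, -0.51 and -0.23. The 4 group means spanned 0.17 on the log2 scale, from -0.66 ± 0.39 in M WT to -0.49 ± 0.18 in M c-Raf, less than the mean SD within a group of 0.26. The M WT mean was -0.505 without replicate 4, above those of F WT and F c-Raf, and no longer the lowest. Over all 24 arrays its level ranged 2.28-fold, that of miR-23a 1.83-fold and that of miR-23b 2.27-fold, while miR-27b ranged 4.65-fold and miR-27a, with 1 array at the floor, 9.51-fold.

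The first question was whether raised c-Raf goes with a changed level of these miRNAs in males. By limma with Benjamini-Hochberg adjustment over the 120 tested miRNAs, 0 of the 5 members were called at an adjusted p under 0.05, where 2.5% of all tested miRNAs were called. All 5 differences were above 0, with a median of 0.34 on the log2 scale against 0.13 over all tested miRNAs, of which 57.5% were above 0. The difference between M c-Raf and M WT was 0.78 (95% confidence interval 0.07 to 1.4999, adjusted p = 0.186 by limma) for miR-27a. It was 0.65 (0.15 to 1.16, adjusted p = 0.137) for miR-27b. These are ratios of 1.72 and 1.57 on the linear scale. Both were among the 20.8% of tested miRNAs with an unadjusted p under 0.05, so that share is what the 2 of 5 members stand against. miR-23b differed by 0.34 (-0.0027 to 0.68, adjusted p = 0.203), miR-23a by 0.19 (-0.10 to 0.49, adjusted p = 0.350) and miR-24 by 0.17 (-0.16 to 0.50, adjusted p = 0.466). The ranges of the 2 groups overlapped for all 5 members, and did not overlap for 2.5% of the tested miRNAs.

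One array carried much of the male difference. Without M WT replicate 4, the difference of miR-27a fell from 0.78 to 0.34, that of miR-27b from 0.65 to 0.45 and that of miR-24 from 0.17 to 0.017, while miR-23b stood at 0.28 and miR-23a at 0.13. No member was called without it either. That array was the second dimmest of the 24.

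In females, 0 of the 5 members were called, where 5% of the tested miRNAs were. The differences between F c-Raf and F WT were small and of both signs. They were -0.10 (95% confidence interval -0.40 to 0.20) for miR-23a, -0.11 (-0.83 to 0.60) for miR-27a, 0.17 (-0.17 to 0.51) for miR-23b, -0.19 (-0.69 to 0.32) for miR-27b and 0.0089 (-0.32 to 0.34) for miR-24. The adjusted p-values by limma lay between 0.709 and 0.998, and no member had an unadjusted p under 0.05, against 14.2% of those tested. Group ranges overlapped for all 5 members, and did not overlap for 2.5% of those tested.

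Over both sexes, 0 of 5 members were called, where 18.3% of the tested miRNAs were. The mean difference was 0.25 for miR-23b (95% confidence interval 0.01 to 0.50, adjusted p = 0.132 by limma), and this was the single member among the 31.7% of tested miRNAs with an unadjusted p under 0.05. The other 4 differed by 0.05 (miR-23a), 0.09 (miR-24), 0.23 (miR-27b) and 0.34 (miR-27a), with adjusted p-values of 0.388 to 0.805. Without M WT replicate 4 these 4 were 0.016, 0.013, 0.13 and 0.11, and miR-23b was 0.23.

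Whether c-Raf acted differently in the 2 sexes was tested by the interaction, in which 0 of 5 members and 0% of the tested miRNAs were called. The male difference exceeded the female one by 0.90 for miR-27a (95% confidence interval -0.12 to 1.91) and by 0.84 for miR-27b (0.13 to 1.55), with an adjusted p of 0.872 by limma for all 5 members. For miR-23a, miR-23b and miR-24 it exceeded it by 0.30, 0.17 and 0.16. miR-27b was 1 of the 5 tested miRNAs, 4.17% of all, with an unadjusted p under 0.05. Without M WT replicate 4 the values of miR-27a, miR-27b and miR-24 were 0.45, 0.63 and 0.0077.

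Within wild type lungs, males were lower than females in all 5 members by their group means, and 0 of 5 members and 0% of the tested miRNAs were called. The difference, males minus females, was -0.79 (95% confidence interval -1.501 to -0.07) for miR-27a, -0.60 (-1.10 to -0.10) for miR-27b, -0.37 (-0.67 to -0.08) for miR-23a, -0.32 (-0.66 to 0.03) for miR-23b and -0.14 (-0.47 to 0.19) for miR-24. The adjusted p-values by limma were 0.496 to 0.652. miR-23a, miR-27a and miR-27b were 3 of the 11 tested miRNAs, 9.17% of all, with an unadjusted p under 0.05, and miR-23a and miR-27b ranked 1 and 2 by p among the 120. The median over all tested was -0.12, with 40.8% above 0. Without M WT replicate 4 the differences were -0.34 for miR-27a, -0.39 for miR-27b, -0.31 for miR-23a and -0.26 for miR-23b, and that of miR-24 turned to 0.014. This comparison and the male one share the 6 M WT arrays, so the low M WT levels enter both. Within c-Raf lungs the sexes differed by -0.14 (miR-23b) to 0.24 (miR-27b), 0 of 5 members were called against 2.5% of those tested, and no member had an unadjusted p under 0.05, against 8.33%.

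**Figure D2:**
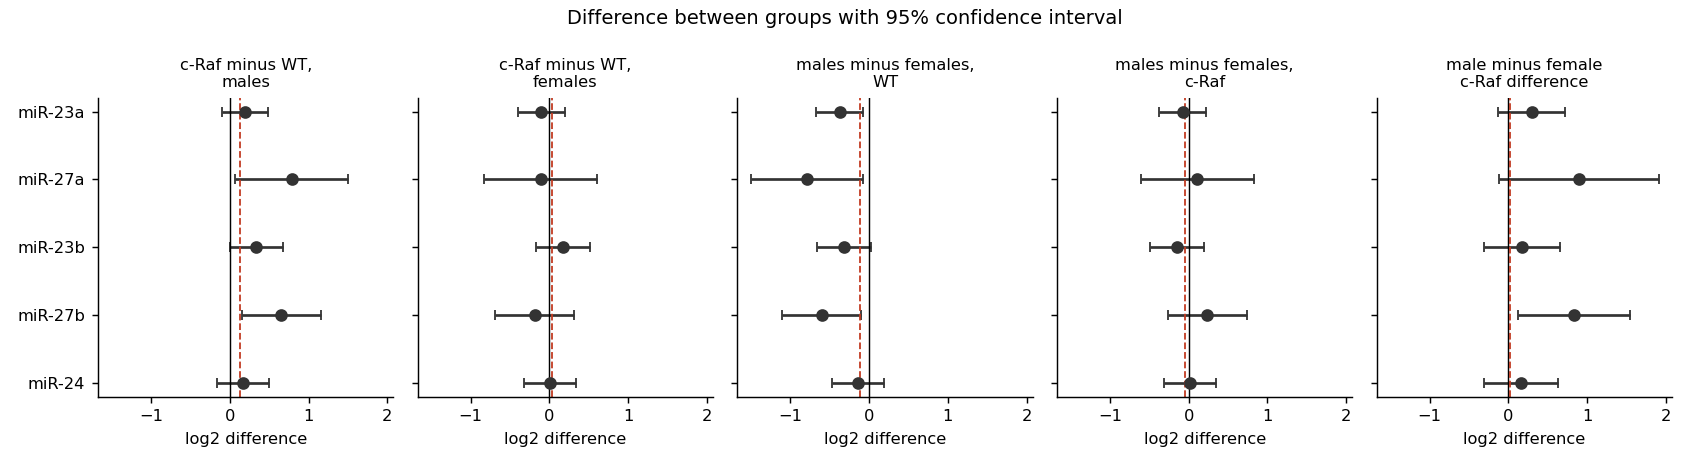
Difference of log2 levels (x axis) for the 5 members (y axis) in 5 comparisons. Points are limma estimates from 6 arrays per group, bars are 95% confidence intervals and the dashed line is the median over all 120 tested miRNAs. The miR-27 forms have the widest intervals, and in the male comparison they lie at 0.78 and 0.65.

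Each slide held 1 array of each group, so the groups could be compared within a slide. In males c-Raf exceeded WT on 6 of 6 slides for miR-23b and miR-27b. For miR-23b the gap was 0.15 to 0.55 on the 6 slides. For miR-27b it was 0.02 to 1.66. miR-23a and miR-27a were higher on 4 of 6 slides and miR-24 on 2 of 6. Slide 4, which carried M WT replicate 4 and was read on a day of its own, had male gaps of 3.04 for miR-27a, 1.66 for miR-27b, 1.07 for miR-24, 0.55 for miR-23b and 0.50 for miR-23a. On the 2 scan days with 2 slides each, the male gap was 0.67 and 0.22 for miR-27a, 0.71 and 0.41 for miR-27b, 0.28 and 0.25 for miR-23b, 0.03 and -0.04 for miR-24, and -0.11 and 0.28 for miR-23a. On slide 1, also read on a day of its own, it was -0.11 for miR-27a, 0.023 for miR-27b, 0.42 for miR-23b, -0.035 for miR-24 and 0.31 for miR-23a. In females the members were higher in c-Raf on 2 slides (miR-23a, miR-27a), 3 slides (miR-23b, miR-27b) or 4 slides (miR-24) of 6. Place on the slide cannot be told apart from group, since each group always had the same 1 of the places.

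**Figure D3:**
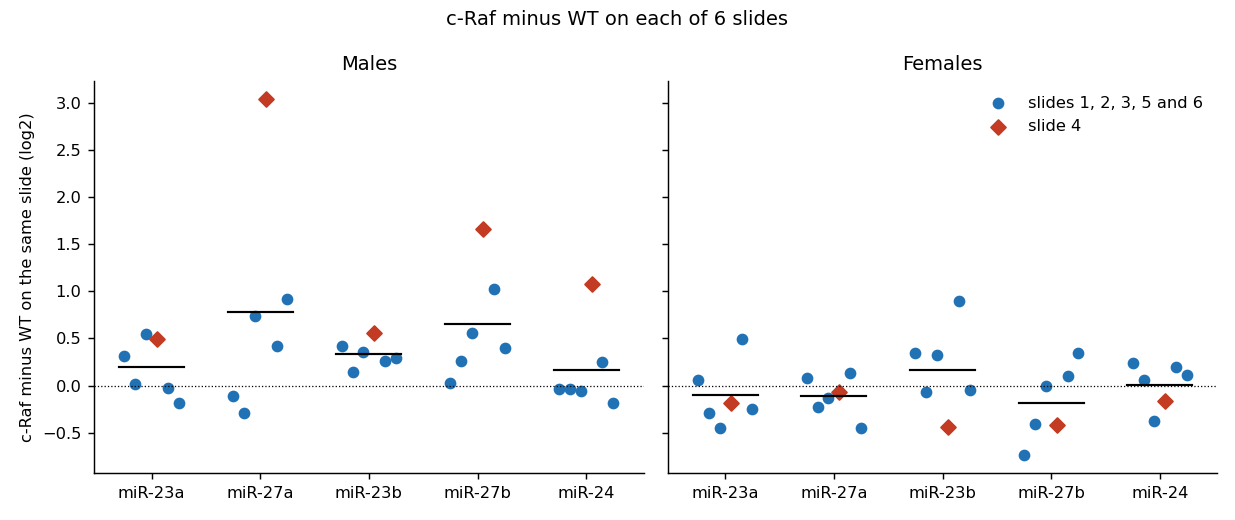
c-Raf minus WT on the same slide, as a log2 difference (y axis), for the 5 members (x axis) in males and females. Points are the 6 slides, the diamond is slide 4 and the line is the mean. In males all 6 slides are above 0 for miR-23b and miR-27b, and slide 4 stands highest for miR-27a, miR-23b, miR-27b and miR-24.

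The 2 probes of a member were read separately because their brightness differed, so that the median of the 20 spots fell between them. The probes of miR-24, miR-23b, miR-23a and miR-27a moved together over the 24 arrays, with Pearson correlations of 0.95, 0.87, 0.79 and 0.74 as a description. Those of miR-27b did not, at -0.13. The value for miR-27a includes M WT replicate 4, its lowest array on both probes (-6.02 on the brighter, -6.48 on the dimmer). The part of that array in the correlation was not tested. The dimmer miR-27b probe had a median of 3.57 intensity units over the 24 arrays, and the brighter one 16.6. For miR-27b the male difference was 0.67 on the brighter probe and 0.15 on the dimmer one, and the female difference was -0.13 and -0.02. For miR-27a the male difference was 0.64 on the brighter probe and 0.49 on the dimmer. Without M WT replicate 4 the male differences on the brighter and the dimmer probe were 0.32 and 0.22 for miR-27b and 0.16 and 0.32 for miR-27a, so the order of the miR-27a probes turned. With the brighter probe alone in the same test, 0 of 5 members were called in any comparison, and the male differences of miR-23a, miR-23b and miR-24 were 0.29, 0.29 and 0.09. On that probe these 3 were 0.21, 0.22 and -0.075 without M WT replicate 4.

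**Figure D4:**
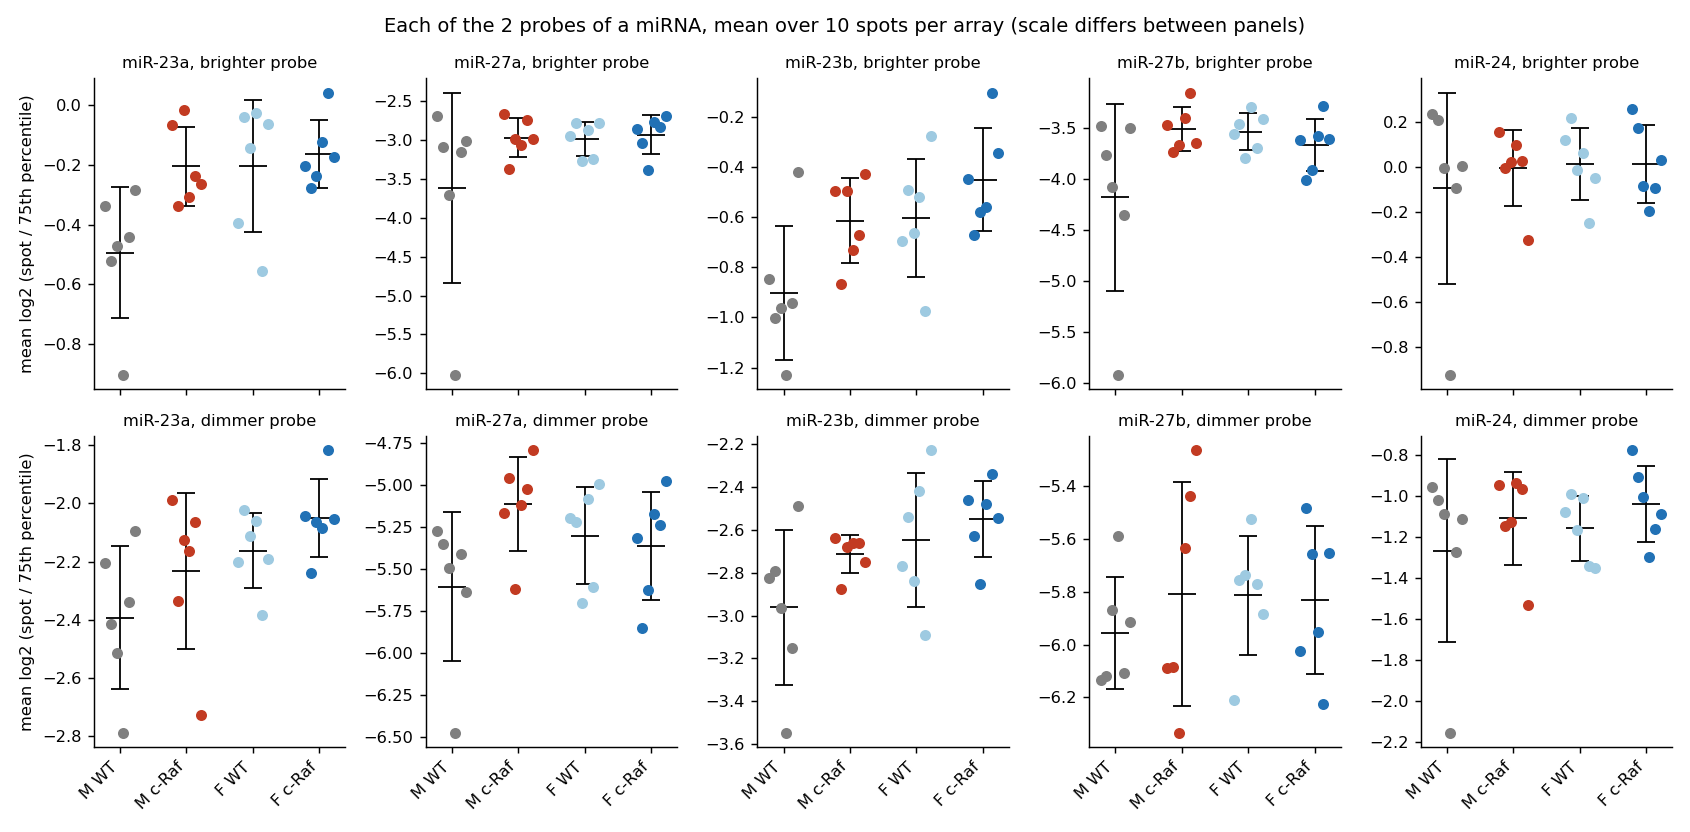
Mean log2 level over the 10 spots of each of the 2 probes of a member (y axis, scale differs between panels), by group (x axis). Points are arrays, and bars give the mean and SD of 6 arrays. M WT replicate 4 is the lowest point on the brighter probe of each member, and the dimmer miR-27b probe shows a male difference of 0.15 against 0.67 on the brighter, or 0.22 against 0.32 without that array.

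Because members of a cluster share a transcript, the gap between 2 members on the same array was compared between groups. This removes the scaling of the array except for a value at the floor, as miR-27a was in M WT replicate 4. Over the 10 pairs of members in 4 comparisons, 40 exact two-sided permutation tests over the 924 divisions of 12 arrays gave 0 adjusted p under 0.05 and 1 unadjusted p under 0.05. That 1 was miR-27b minus miR-24 in males, where c-Raf exceeded WT by 0.48 (exact permutation p = 0.039, adjusted p = 0.433), higher on 6 of 6 slides. Within the miR-23a cluster, miR-27a minus miR-24 differed by 0.62 in males (exact permutation p = 0.082, adjusted p = 0.433). miR-23a minus miR-27a differed by -0.59 in males (exact permutation p = 0.188, adjusted p = 0.680) and by 0.0087 in females. Within the miR-23b cluster, miR-23b minus miR-27b differed by -0.31 in males and 0.35 in females, with exact permutation p-values of 0.223 and 0.212. Between forms that share a seed, miR-27a minus miR-27b differed by 0.13 in males and 0.07 in females, within the SD of 0.21 to 0.68 of that gap in each group. With M WT replicate 4 left out, the male gaps named above were smaller in size or turned. They were 0.32 for miR-27a minus miR-24, -0.20 for miR-23a minus miR-27a and -0.16 for miR-23b minus miR-27b. miR-27a minus miR-27b turned to -0.11, and miR-27b minus miR-24 was 0.43. Of the other pairs, miR-23b minus miR-24 grew from 0.17 to 0.27 and miR-23a minus miR-24 from 0.02 to 0.12. miR-23a minus miR-23b stayed at -0.15. miR-23a minus miR-27b went from -0.46 to -0.31, and miR-27a minus miR-23b from 0.44 to 0.06. The smallest p these tests could give was 0.00216, which for 1 of 40 tests alone adjusts to 0.0866, so no single gap could have passed the adjusted threshold by itself.

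The p-values of the correlations between members came from shuffling all 24 arrays without regard to group or slide, so they allow for neither. Across the 24 arrays r was above 0 in all 10 pairs of members, over which p-values were adjusted. It was below 0 in 3 of them without M WT replicate 4: -0.19 for miR-27b with miR-24, -0.030 for miR-23a with miR-27b and -0.017 for miR-23b with miR-24. The strongest were miR-27a with miR-24 (r = 0.75, permutation p = 0.004, adjusted 0.011; rho = 0.34, permutation p = 0.110, adjusted 0.184) and miR-27a with miR-27b (r = 0.75, permutation p = 0.001, adjusted 0.007; rho = 0.53, permutation p = 0.008, adjusted 0.062). Both rested on the M WT arrays farthest from the median: without M WT replicates 3 and 4 they were 0.36 and 0.29. Within the 2 scan days that held 8 arrays each, the first was -0.0013 and 0.53 and the second 0.45 and 0.59. miR-23a with miR-24 had r = 0.58 (permutation p = 0.001, adjusted 0.007; rho = 0.41, permutation p = 0.046, adjusted 0.153), 0.49 and 0.43 within those days, and 0.32 without M WT replicate 4 and M c-Raf replicate 6. miR-23a with miR-27a had r = 0.53 (permutation p = 0.002, adjusted 0.008; rho = 0.34, permutation p = 0.107, adjusted 0.184) and was 0.52 without M WT replicate 4 and M c-Raf replicate 6, but 0.37 without M WT replicate 4 alone. It was 0.33 and 0.59 within the same 2 scan days, and 0.39 after the group means were removed. The partners miR-23b and miR-27b of the other cluster had r = 0.42 (permutation p = 0.038, adjusted 0.063; rho = 0.31, permutation p = 0.145, adjusted 0.207), 0.21 and 0.15 within those days, and 0.07 without M WT replicate 4 and F c-Raf replicate 5. miR-23a with miR-23b had r = 0.39 (permutation p = 0.061, adjusted 0.078; rho = 0.37, permutation p = 0.077, adjusted 0.184), and 0.54 and 0.48 within those days. The r of miR-23a with miR-23b was 0.20 after the group means were removed and 0.26 without M WT replicate 4. It was 0.45 without M WT replicate 4 and M c-Raf replicate 6. miR-27a with miR-23b, which come from different clusters, had r = 0.495 (permutation p = 0.006, adjusted 0.012). Their rho was 0.51 (permutation p = 0.012, adjusted 0.062). The r of this pair was 0.36 and 0.38 within the same 2 scan days. It was 0.36 without M WT replicate 4 and 0.26 without M WT replicates 3 and 4. For scale, 13.9% of the 7021 pairs among 119 tested miRNAs with varying levels had r above 0.5, and all levels of an array share its scaling.

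Outside the family, the miRNAs whose levels over the 24 arrays were most like each member by Pearson r were miR-195 (0.68), miR-34c (0.58) and miR-199a-3p (0.57) for miR-23a. They were miR-107 (0.86), miR-25 (0.85) and miR-26a (0.84) for miR-27a, and miR-25 (0.72), miR-107 (0.71) and miR-342-3p (0.68) for miR-27b. For miR-23b they were miR-200b (0.67), miR-30a* (0.67) and miR-199b* (0.59), and for miR-24 miR-99a (0.82), miR-195 (0.81) and miR-126-3p (0.76). miR-25 and miR-107 were thus nearest to both miR-27 forms, and miR-195 to both miR-23a and miR-24. These values are descriptions over arrays that share their scaling. All of them include M WT replicate 4, and its part in them was not tested.

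miRNAs that mark other lung cell types were read beside the members. The endothelial miR-126-3p had a male difference of 0.95 (adjusted p = 0.108 by limma) and a female one of 0.54 (adjusted p = 0.414), and its partner miR-126-5p was detected on 0 arrays. The level of miR-126-3p, the only 1 of the 2 that was tested, is given here as a multiple of the 75th percentile. It was 0.06 to 0.31 in M WT, 0.19 to 0.45 in M c-Raf, 0.21 to 0.31 in F WT and 0.28 to 0.51 in F c-Raf. Of the 5 epithelial markers 4 were tested and 0 called in either sex, with median differences of 0.56 in males and 0.77 in females. In males the summed level of the 4 tested ones lay between 0.60 and 1.38 in wild type and between 0.66 and 1.96 in c-Raf. Of the 5 leukocyte markers 3 were tested and 0 called, and miR-142-3p and miR-142-5p were detected on 0 arrays. Among 3 erythroid markers miR-486 was lower in M c-Raf, with a male difference of -1.41 (adjusted p = 0.016). miR-451 had differences of the other sign, 0.64 in males and 0.11 in females (adjusted p = 0.305 and 0.939), and miR-144 was detected on 0 arrays. Among 3 mesenchymal markers miR-214 was lower in c-Raf, with differences of -1.03 in males and -0.69 in females (adjusted p = 0.003 and 0.034). miR-199a-3p had differences of the other sign, 0.30 and 0.12 (adjusted p = 0.283 and 0.811). Neither of the 2 smooth muscle markers was detected on enough arrays to be tested. The part of these cell types in the members' levels was not tested.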

How the data were processed

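Total RNA from lung, with laser dissection described in the study's methods, was hybridised to 1-colour Agilent mouse miRNA arrays, 1 per mouse. The deposited scanner files hold background-subtracted spot intensity made by the authors with Feature Extraction (version 10.7.3.1 per the file headers; the submitters' processing notes list 8.1.3). No genome alignment was involved. Following the study's methods, each array was scaled to its 75th percentile, floored at 0.01 and summarised as the median of 20 spots; here the percentile was taken over the spots of the 27 miRNAs detected on all 24 arrays, and levels were put on a log2 scale. The deposited table of processed intensity served as an alternative.

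Levels were compared with limma 3.58.1 (R 4.3.3) over 24 arrays with 1 mean per group and Benjamini-Hochberg adjustment over the 120 mouse miRNAs detected on at least 6 arrays. The fit was checked on simulated data. The files gave no mean spot signal, so the normexp alternative used the median signal. Arrays have no count depth, and 6 per group limits the precision.

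Replicate numbers marked the slide on all 24 arrays, per the file headers.

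Named miRNAs were the 5 members, their passenger forms, same-seed miRNAs, the 3 nearest patterns of each member and lists of cell type markers. Members and lists were chosen with earlier results of these data known.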

Additional observations from a re-analysis of the deposited data

Results flagged for a closer look

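In 3 of the 20 sets of 6 arrays (5 members in 4 groups) 1 array lay apart from the other 5 by Dixon's criterion, where chance alone gives about 1. miR-27a in M WT replicate 4 was at the floor of -6.64, while the other 5 arrays of the group averaged -3.97. miR-24 in the same array was at -1.42, with the other 5 at -0.50 on average. miR-24 in M c-Raf replicate 6 was at -0.84, with the other 5 at -0.42. These were the 2 arrays with the lowest 75th percentile, 52.8 and 34.9 intensity units. Over the 24 arrays, the level of miR-24 had r = 0.44 with log2 of the 75th percentile (permutation p = 0.037, adjusted over the 5 members 0.183). Its rho was 0.17 (permutation p = 0.425). For miR-27a r was 0.29 (permutation p = 0.179, adjusted 0.285) and rho was -0.10 (permutation p = 0.654). The part of dim signal in the 3 outlying values themselves was not tested.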

How the results depend on the processing

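No member was called in any of the 6 comparisons under any alternative that was run: other scalings, background corrections, spot summaries, floors, filters, array weights, the slide or scan day as a block, the methods' test on linear values, or without any 1 array. With the slide as a replicate block the differences were the same and the adjusted p-values over all members and comparisons lay between 0.062 and 0.991. The lowest, 0.062, was miR-23b over both sexes, and miR-27b in males had 0.095. Arrays of the same slide deviated from their group means together at a median correlation of 0.36 over 36 pairs of arrays (-0.06 on other slides), 23 pairs were over 0.1 and the lowest was -0.42, and 15 of 24 arrays correlated best with an array of their own slide. Scan day as a block gave 0.072 to 0.991. None of the 40 gaps between members passed the adjusted threshold under its alternatives. Leaving out the 2 dimmest arrays and keeping only the brighter probe were chosen after seeing the data.

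Other scalings moved the median of all tested miRNAs. In males it was 1.01 when the percentile came from all non-control spots, 1.02 in the deposited table, 1.19 without scaling, 0.23 after quantile normalization and -0.79 after normexp. Relative to that median, the male differences of miR-27a and miR-27b were 1.34 and 0.34, 1.33 and 0.36, 0.44 and 0.43, 0.62 and 0.63, and 0.24 and 0.10 in that order, all above 0, whereas miR-23a and miR-24 were -0.12 and -0.14 in the first and -0.099 and -0.12 in the deposited table, and after normexp miR-23a, miR-23b and miR-24 were 0.81, 0.75 and 0.85, above both miR-27 forms. With the total gene signal the median was 0.21, miR-27a was 0.0041 above it and miR-27b 0.79. All of these values include M WT replicate 4, and its part in them was not tested.

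Besides those without 1 array, 49 values turned sign. After normexp the male differences were -0.55 (miR-27a), -0.045 (miR-23b) and -0.69 (miR-27b), the female ones 0.13 (miR-23a), 0.56 (miR-27a) and 0.59 (miR-27b), and that of miR-27b over both sexes -0.048. The difference between the sexes was then -0.10 (miR-23a), -1.10 (miR-27a), -0.35 (miR-23b), -1.28 (miR-27b) and -0.033 (miR-24), males minus females in WT 0.37 (miR-27a), 0.029 (miR-23b) and 0.42 (miR-27b), and in c-Raf -0.74 (miR-27a), -0.86 (miR-27b) and -0.037 (miR-24). In females, miR-23a was 0.014 (all non-control spots), 0.041 (brighter probe) and 0.076 (mean over spots), miR-27a 0.0055 (all non-control spots), 0.055 (brighter probe) and 0.023 (floor of 0.1), miR-23b -0.056 (no scaling) and -0.065 (total gene signal), and miR-24 -0.029 (array weights), -0.00027 (brighter probe), -0.22 (no scaling) and -0.16 (total gene signal, which gave -0.023 over both sexes). For males minus females in WT, miR-24 was 0.014 with array weights and 0.014 without the 2 dimmest arrays, and miR-27a 0.0086 with a floor of 0.1. In c-Raf, miR-23a was 0.026 (all non-control spots), 0.031 (quantile), 0.015 (array weights), 0.10 (deposited table), 0.62 (no scaling), 0.073 (total gene signal) and 0.0063 (without the 2 dimmest arrays), miR-23b 0.038 (deposited table), 0.55 (no scaling) and 0.014 (total gene signal), miR-27a -0.042 (brighter probe) and -0.33 (total gene signal), and miR-24 -0.019 (brighter probe), -0.044 (mean over spots) and -0.0072 (quantile). The cause was not tested.

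Without 1 array, 4 results changed sign. miR-24 in females ran from -0.047 to 0.086, miR-24 between the sexes from -0.20 to 0.014 in WT and from -0.055 to 0.093 in c-Raf, and miR-23a between the sexes in c-Raf from -0.15 to 0.0063. With a floor of 0.1 miR-27b was at the floor on all 24 arrays and gave no value. The signal of miR-27a and miR-27b near background limits what their differences can show.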
